A study of Mus musculus with 2 samples.

Results

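The 10 genes described here mark mast cells and basophils: Mcpt4, Cma1, Tpsb2, Tpsab1, Cpa3, Kit, Fcer1a, Ms4a2, Hdc and Gata2. They were chosen by name, with earlier results of these data known. Every non-control probe of the array carrying any of these names was taken, which gave 15 probes among 37008 gene names on the array. RNA of dorsal root ganglion (DRG) neurons, the sensory neurons beside the spinal cord, was hybridised in 1 colour, with Cy3, to 1 array per genotype. Both C57BL/6 samples carried the AND T cell receptor transgene. Per the labels, one came from Dock8+/- mice and had low IL-31 and the other from Dock8-/- mice and had high IL-31. DOCK8 activates the GTPase CDC42 in leukocytes, and interleukin-31 (IL-31) is a T cell cytokine that evokes itch. The promoter behind the transgene, age, sex, the number of animals behind each sample and the way neurons were separated from the rest of the ganglion are not given in the sources used here. With 1 array per genotype there is no replicate, no p-value and no test, so each difference below is between these 2 samples and not shown to belong to the genotype.

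Mast cells are tissue-resident cells of the blood lineage that lie along nerves, vessels and connective tissue. Their granules store histamine, heparin-bound chymases and tryptases, and carboxypeptidase, which are released when IgE bound to the high-affinity receptor meets its antigen. They need the receptor KIT and its ligand to survive. Basophils are circulating cells that share the IgE receptor, histamine synthesis and GATA2 but lack most of the granule proteases. Mediators of mast cells act on sensory nerve endings and are a classical route to itch. KIT is also made by a subset of sensory neurons and by melanocytes, and GATA2 by endothelial cells, so these 2 genes do not mark mast cells alone.

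The processed signal is the scanner software's background-corrected intensity on a linear scale, and the error after it is the software's own error for that spot, not a spread between samples. A probe is called read where its spot was flagged as well above background. Differences are on the log2 scale, Dock8-/- minus Dock8+/-, after subtracting each array's 75th percentile. That percentile was 304 in Dock8+/- and 146 in Dock8-/-, so equal processed signals are not equal levels. Of all probes 56.9% and 50.7% were read, and 0 spots reached saturation. Probes spotted 10 times had a root mean square SD of 0.0435 and 0.0463 on the log2 scale. In these samples fewer mast cells and less RNA per mast cell cannot be told apart. Levels of different probes depend on the probe and were not compared.

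The chymase genes Mcpt4 and Cma1 and the carboxypeptidase gene Cpa3 were read in the Dock8+/- sample and not in the Dock8-/- sample. Their processed signals in Dock8+/- were 939, 658 and 211, where the 75th percentile of that array was 304. The tryptase gene Tpsb2, the receptor gene Kit, the histidine decarboxylase gene Hdc and the transcription factor gene Gata2 were read in both, with differences under 2-fold. The IgE receptor genes Fcer1a and Ms4a2 and the tryptase gene Tpsab1 were at or near background throughout. Of the 10 genes, 8 were read in Dock8+/- and 4 in Dock8-/-, where the shares over all gene names were 57.4% and 51.9%. Read on the Dock8+/- array only were 4 of the 10, against 6.88% of all gene names (2545 of 37008). Read on the Dock8-/- array only were 0 of the 10, against 515 of the 37008, so the whole array leaned the same way. By value or bound, 3 of the 8 genes read on at least 1 array were at least 2-fold lower in Dock8-/- and 0 were at least 2-fold higher, where 8.08% and 10.2% of all 21709 genes read on at least 1 array were. The 2-fold size serves as a description only. So do these shares, since the genes were chosen with earlier results of these data known. Median scaling gave 2702 lower and 1434 higher genes over the whole array in place of 1754 and 2204, loess 2809 and 1392, normexp background correction 904 and 909, and spike-in scaling 18814 and 95.

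**Figure D1:**
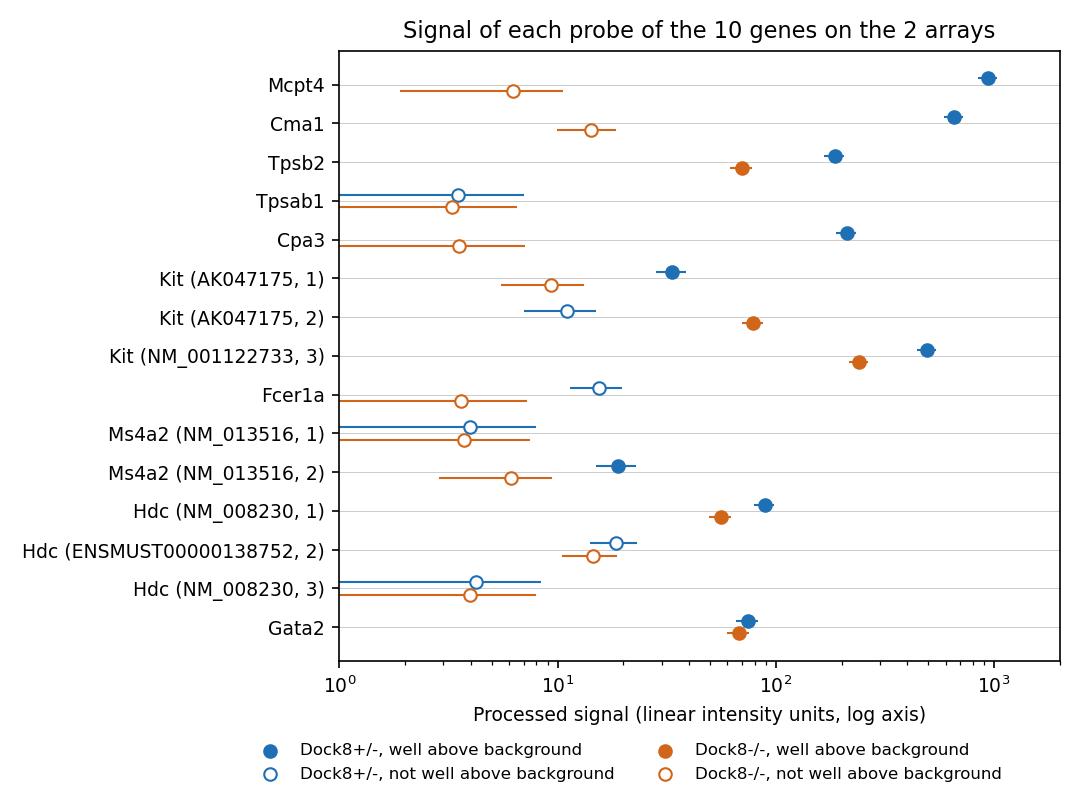
Processed signal (linear intensity units, on a log axis) of the 15 probes of the 10 genes on the Dock8+/- array (blue) and the Dock8-/- array (orange), with bars for the scanner software's error of each spot (bars that would pass below 1 end at the axis); filled points were well above background and open points were not. Mcpt4 has 939 and 6.22, Cma1 658 and 14.2 and Cpa3 211 and 3.54, whereas Gata2 has 74.3 and 67.5.

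With the brightest probe standing for each gene, 3 granule protease genes had the largest differences among the 10. Mcpt4 encodes a chymase of connective tissue mast cells that cuts extracellular matrix and peptides. Its probe, for transcript NM_010779 at chr14:56678589-56678648 (mm9, minus strand), gave a processed signal of 939 ± 94.0 in Dock8+/- and 6.22 ± 4.32 in Dock8-/-. The second value lies under 16.1, the lowest signal of any probe read on that array, so the difference is a lower bound: Mcpt4 was at least 27.9-fold lower in Dock8-/-. Ordered from the lowest difference or bound, it stood at place 5 of the 21709 genes read on at least 1 array.

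Cma1, the gene of another chymase of the same cells, followed. Its probe, for NM_010780 at chr14:56560454-56560513 (mm9, minus strand), gave 658 ± 66.0 and 14.2 ± 4.28. The second value was again not well above background, and Cma1 was at least 19.6-fold lower in Dock8-/-, at place 8 in the same order. Both genes thus had a strong spot on one array and a spot near background on the other.

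Cpa3 encodes the carboxypeptidase that is stored with chymase in mast cell granules. Its probe, for NM_007753 at chr3:20115674-20115733 (mm9, minus strand), gave 211 ± 21.4 in Dock8+/- and 3.54 ± 3.56 in Dock8-/-, the latter a surrogate that the software enters where a spot does not exceed background. The software did not locate this spot on the Dock8-/- array and measured it at its expected place. Cpa3 was at least 6.27-fold lower, at place 102. The first 30 bases of the 60-base probe of each of these genes are shown because these spots carry the differences with the longest stretch of A and G in capitals. A run of 4 GA or 4 GAA units was found in 0 of the 15 probes.
Mcpt4 probe: tGAAAGAtgaattctgtgatgatggactgt
Cma1 probe: ataagatcttGAGGGAGAAttaactctgga
Cpa3 probe: gccaagtatatcctcAAGAAtacttcctaa

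The unprocessed pixel means of these spots can be set beside the negative controls. The Mcpt4 spot had a mean pixel intensity of 912 beside a local background of 62.0 on the Dock8+/- array and of 81.5 beside 63.0 on the Dock8-/- array. For Cma1 these values were 700 beside 67.0 and 90.7 beside 64.0, and for Cpa3 307 beside 69.0 and 83.8 beside 67.0. The 308 negative control spots of the Dock8-/- array had a median of 75.3, a 95th percentile of 82.5 and a highest value of 105. In Dock8-/- the Mcpt4 spot therefore lay between the median and the 95th percentile of the negative controls, and the Cma1 and Cpa3 spots between the 95th percentile and the highest. The software's less strict flag, positive and significant against background, was set for Mcpt4 and Cma1 in Dock8-/- and not for Cpa3. The Cpa3 pixel mean of 83.8 was nevertheless above the 81.5 of Mcpt4, so the flag does not separate these 2 genes by pixel signal.

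Tpsb2 was read in both samples. It encodes the tryptase of connective tissue mast cells. Its probe, for NM_010781 at chr17:25504819-25504878 (mm9, plus strand), gave 186 ± 19.1 in Dock8+/- and 70.0 ± 8.11 in Dock8-/-, well above background on both. After scaling, the log2 difference was -0.35 with an error of 0.22 from the scanner's spot errors, or 1.27-fold lower. On the Dock8-/- array the software did not locate this spot either, as was the case for 8.15% of the spots it flagged as well above background there. The distance between Tpsb2 and the bounds of the chymases was not tested, since 1 array per genotype gives no error between samples.

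Tpsab1, the gene of another tryptase, was not read. Its probe, for NM_031187 at chr17:25480640-25480699 (mm9, minus strand), gave 3.51 and 3.27, both surrogate values. In the RefSeq annotation of the C57BL/6J genome (GRCm38.p6) this gene is a transcribed pseudogene, and both samples are of strain C57BL/6. The first 30 bases of the tryptase probes follow, to show that they are different sequences.
Tpsb2 probe: GGGctgtgctgtctttaactcactgcttcc
Tpsab1 probe: gacttgaagtatcacAAAGGtctcatcaca

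The alpha and beta chains of the IgE receptor gave little to compare. Fcer1a encodes the alpha chain, which binds IgE, and Ms4a2 the signal-amplifying beta chain. The Fcer1a probe (NM_010184, chr1:175152865-175152924, mm9) gave 15.5 ± 4.14 in Dock8+/- and a surrogate of 3.60 in Dock8-/-, read on neither array. One Ms4a2 probe (NM_013516, chr19:11690107-11690166, mm9) was read in Dock8+/- at 19.0 ± 3.94, just above 17.4, the lowest signal read there, and gave 6.12 ± 3.27 in Dock8-/-. The other Ms4a2 probe gave surrogates of 3.97 and 3.73. For neither gene did the signal over background allow a fold change.

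Kit, the receptor for the mast cell growth factor, had nearly the same scaled level in both samples on its messenger RNA probe. That probe, for NM_001122733 at chr5:76052394-76052453 (mm9, plus strand), gave 491 ± 49.3 and 241 ± 24.4, a log2 difference of 0.03 with an error of 0.21. Its sign depends on the processing: it was -0.04 with normexp background correction, -0.19 with median scaling and -1.82 with spike-in scaling. The other 2 Kit probes are for AK047175, a cDNA of neonatal cerebellum placed in the Kit locus and described in the file as unclassifiable. They lie end to end on the plus strand at chr5:76048202-76048261 and chr5:76048262-76048321 (mm9), with 0 bases between them, and each was read on 1 array only. The first gave 11.0 ± 3.95 in Dock8+/- and 78.7 ± 8.64 in Dock8-/-, at least 9.46-fold higher, while the second gave 33.4 ± 5.18 and 9.34 ± 3.83, read in Dock8+/- only, with no bound above 1-fold and so no direction. The software located neither spot in Dock8+/-, and in Dock8-/- only the first. Both are shown whole, since each of these neighbouring stretches of 1 cDNA was read on a different array, with the longest stretch of A and G in capitals.
Kit cDNA probe, first: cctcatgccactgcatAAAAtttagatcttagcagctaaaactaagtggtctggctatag
Kit cDNA probe, second: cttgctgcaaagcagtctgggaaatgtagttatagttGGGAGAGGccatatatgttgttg

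Hdc encodes histidine decarboxylase, the enzyme that makes histamine. Its brightest probe (NM_008230, chr2:126419516-126419575, mm9) gave 88.8 ± 9.56 in Dock8+/- and 55.8 ± 6.49 in Dock8-/-, a log2 difference of 0.39 with an error of 0.23. This spot was also not located on the Dock8-/- array. The other 2 Hdc probes were read on neither array, with 18.6 and 14.6 for one and surrogates of 4.21 and 3.97 for the other. Gata2, a transcription factor that mast cells and basophils need, had 74.3 ± 8.37 and 67.5 ± 7.65 on its probe (NM_008090, chr6:88156835-88156894, mm9), a log2 difference of 0.92 with an error of 0.23. For Gata2 the unscaled signals were nearly equal, so the difference comes from that of the 75th percentiles. Both genes turned below 0 with spike-in scaling, to -1.46 for Hdc and -0.93 for Gata2. Over the 4 genes read on both arrays the median difference was 0.21, beside 0.03 over all 18649 such genes. That median leaves out the genes with the largest differences, because they were not read in Dock8-/-.

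**Figure D2:**
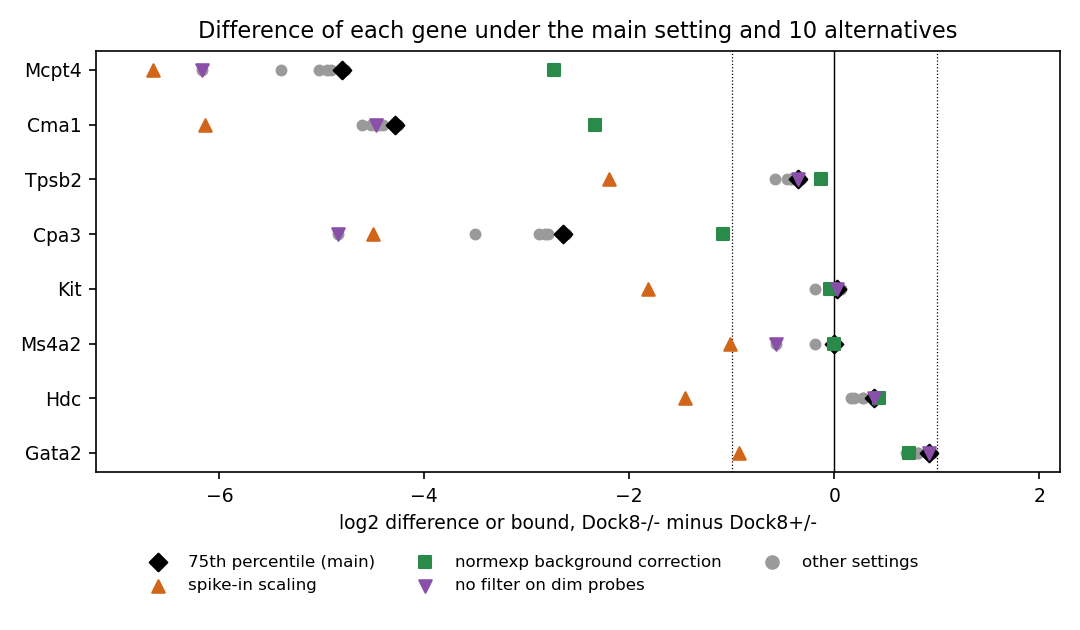
Log2 difference or bound, Dock8-/- minus Dock8+/-, of the 8 genes read on at least 1 array, under the main setting (black) and the 10 alternatives; the solid line marks 0 and the dotted lines 2-fold. Mcpt4, Cma1 and Cpa3 lie beyond 2-fold lower in every setting, from -6.65 to -1.09, while Kit, Hdc and Gata2 lie below 0 with spike-in scaling, and Kit also with median scaling and normexp background correction.

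The sizes of the lower genes moved with the processing under the 10 alternatives tried. A bound was set never to pass 0, so their direction could turn only in settings that gave a value in place of a bound. Without the filter on dim probes the values were -6.17 for Mcpt4, -4.47 for Cma1 and -4.84 for Cpa3, with Dock8-/- signals near background. With normexp background correction, which here adds an offset of 50 to every spot, the bounds were 6.63-fold for Mcpt4, 5.03-fold for Cma1 and 2.13-fold for Cpa3. With spike-in scaling the median of all genes read on both arrays shifted by -1.85. The log2 bounds moved by the same shift, to -6.65, -6.14 and -4.50.

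Upstream sequence was available from RefSeq for 8 of the 10 genes, with no entry for Tpsb2 and Tpsab1. Each window runs from 250 bases before to 50 after a start site on GRCm38.p6. The letters GATAA or, on the other strand, TTATC, the core bound by GATA factors, were found in the windows of 5 of these 8 genes: Mcpt4, Cma1, Cpa3, Fcer1a and Ms4a2. They were not found in those of Kit, Hdc and Gata2. Of all 32851 windows 25.4% held them, a share per window and not per gene. Some genes, such as Kit and Gata2, have several windows. The letters CATGTG or CACATG, an E-box bound by MITF, were in the window of Fcer1a only among the 8, and in 14.2% of all windows; these motifs do not overlap each other. A match is a description of letters and not a binding site. The 200 bases before the start are shown for the 3 genes that were lower, with GATAA or TTATC in capitals. They lie on the minus strand at chr14:56062311-56062510 for Mcpt4, chr14:55944676-55944875 for Cma1 and chr3:20242182-20242381 for Cpa3. The capitals begin 102, 194 and 45 bases before the start.
Mcpt4 upstream: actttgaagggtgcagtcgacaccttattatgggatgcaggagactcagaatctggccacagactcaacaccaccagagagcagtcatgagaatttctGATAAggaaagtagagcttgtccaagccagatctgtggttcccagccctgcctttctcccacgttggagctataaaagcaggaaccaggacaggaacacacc
Cma1 upstream: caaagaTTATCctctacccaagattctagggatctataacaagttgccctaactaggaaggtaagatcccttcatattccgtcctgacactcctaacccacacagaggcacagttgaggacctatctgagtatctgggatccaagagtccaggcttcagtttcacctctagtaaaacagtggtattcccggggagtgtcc
Cpa3 upstream: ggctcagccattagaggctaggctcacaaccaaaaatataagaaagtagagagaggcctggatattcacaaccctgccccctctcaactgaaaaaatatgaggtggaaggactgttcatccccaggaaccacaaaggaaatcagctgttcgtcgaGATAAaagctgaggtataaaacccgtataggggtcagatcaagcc

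Other genes of mast cells and basophils were taken from lists. Of 9 further granule proteases, 5 were read on neither array, among them the basophil protease gene Mcpt8 (9.89 and 4.32). Of the 4 that were read, 1 was at least 2-fold lower and 0 higher. This was Cma2, a further chymase gene, read in both samples and 3.47-fold lower in Dock8-/- (529 and 73.1). Ctsg, also read in both, was 1.58-fold higher after scaling (38.3 and 29.0). Tpsg1, a membrane tryptase gene, had 34.0 in Dock8+/- and 4.25, not read, in Dock8-/-. Of the 5 basophil markers outside the 10 genes, 2 were read in Dock8+/- and 1 in Dock8-/-. Of 15 surface receptors of these cells, 3 of the 9 that were read were at least 2-fold lower and 0 higher. They were Cd34 at 4.07-fold (10284 and 1212), Itgb7, an integrin chain, at 3.51-fold, and Il1rl1. Il1rl1, the receptor for interleukin-33, was at least 3.77-fold lower, with 127 and 4.43. Il33, which encodes that cytokine, was 3.17-fold lower on its brightest probe (1123 and 170). Its other probe gave a log2 difference of -0.70. Which cells the signals of Cd34, Itgb7, Il1rl1 and Il33 came from was not tested. Mrgprb2, the receptor through which peptides activate mast cells, was read on neither array, with 4.38 and 4.19.

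Genes of the signalling and mediator steps were read in most cases, but many serve other cells as well. In the list of 15 genes of IgE receptor signalling, 2 of 14 that were read were at least 2-fold lower and 1 higher. Fcer1g, the shared gamma chain that macrophages also use, was 2.52-fold lower (2052 and 390). Of 7 genes of lipid mediator synthesis 3 were at least 2-fold lower and 0 higher, with Pla2g4a, a phospholipase gene, 5.39-fold and Alox5, which makes leukotrienes, 4.45-fold lower. Of 12 genes of granule content and release 2 were lower and 2 higher, with Vamp8 2.35-fold lower. Unc13d was 3.03-fold higher on its brightest probe, with its other probe at a log2 difference of 0.41. Snap23 was 2.13-fold higher on its brightest probe, but its 4 probes ran from -0.65 to 1.09, so its direction depends on the probe. Kitl, the ligand of KIT, had a difference of -0.20, with its 3 probes from -0.20 to 0.02. Of the histamine receptors Hrh1 was 2.84-fold lower, Hrh3 had 0.53, Hrh4 was read in Dock8+/- only and Hrh2 on neither array. F2rl1, the receptor that tryptase activates, was read on neither array. Of the 8 targets of mast cell mediators 6 were read, and 1, the endothelin receptor gene Ednra, was at least 2-fold lower (4.66-fold) and 0 higher. Of the 12 genes of the KIT ligand and transcription factors 10 were read, and 1, Cebpa, was lower (2.44-fold) and 0 higher. Of 10 cytokine genes 3 were read, namely Il33, Tnf with a difference of 0.01, and Tslp in Dock8+/- only. With spike-in scaling every one of these log2 differences moves down by the shift of -1.85 given above, so the genes given here as higher lie below 0 there.

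**Figure D3:**
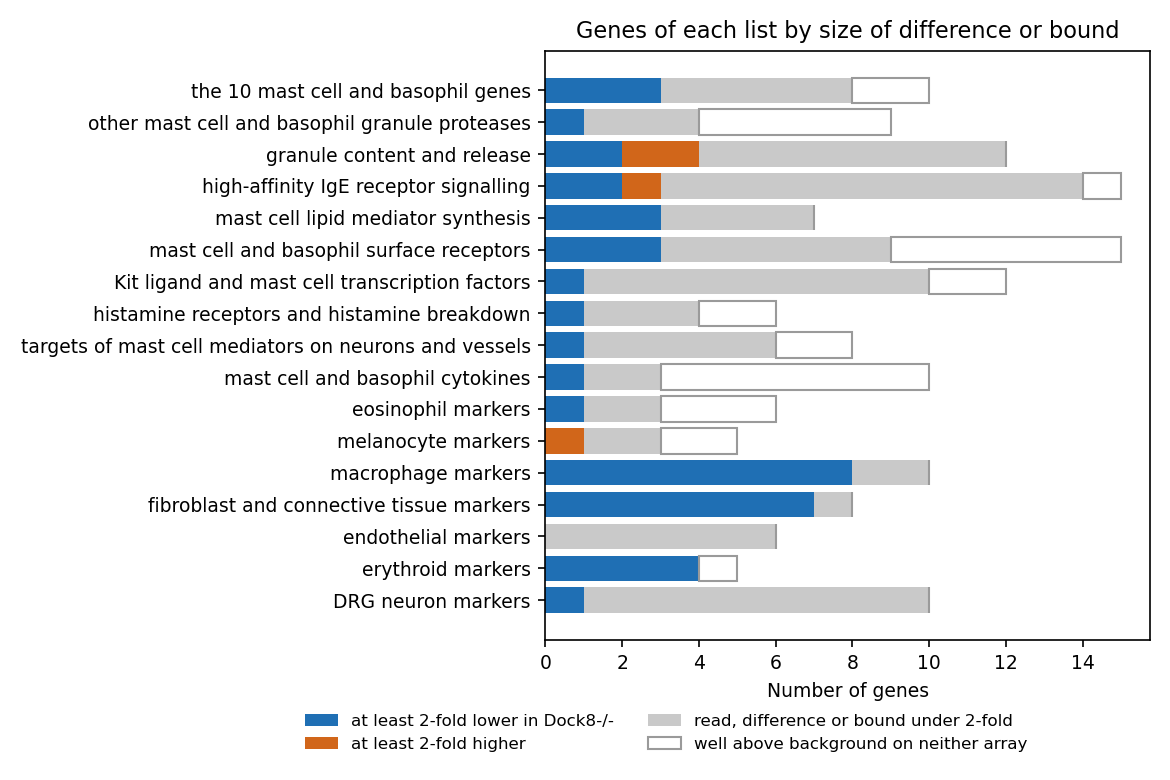
Number of genes per list at least 2-fold lower in Dock8-/- (blue), at least 2-fold higher (orange), read with a difference or bound under 2-fold (grey) and well above background on neither array (white). Lower genes make up 3 of the 10 mast cell and basophil genes, 8 of 10 macrophage and 7 of 8 fibroblast markers.

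Most markers of macrophages, fibroblasts and erythroid cells were also lower in Dock8-/-, whereas most of those of endothelial cells, melanocytes and DRG neurons were not 2-fold apart. The part of other cell types in the differences of the mast cell proteases was not tested. Of 10 macrophage markers 8 were at least 2-fold lower and the median difference was -1.43. Their signals divided by the 75th percentile summed to 146 in Dock8+/- and 39.2 in Dock8-/-. Such a sum follows its brightest probes, here Lyz2 (28256 and 1848) and among erythroid markers Hba-a1 (33289 and 7211). Of 8 fibroblast and connective tissue markers 7 were 2-fold or more lower. Their median difference was -2.26 over the 7 read on both arrays, with sums of 844 and 259. For the 10 mast cell and basophil genes the same sums were 8.84 and 3.24. In Dock8-/- the Kit probe had the highest signal of them (241) and so weighs most in that sum. This does not compare the levels of the genes. All 10 macrophage markers and 7 of the 8 fibroblast markers were read in Dock8-/-. Dpt, a matrix gene of fibroblasts, was not, and was at least 10.6-fold lower. Erythroid markers were at least 2-fold lower in 4 of 5 cases, with sums of 112 and 50.2. Of 6 endothelial markers 0 were at least 2-fold apart by value or bound. Their median difference was -0.33 over the 5 read on both arrays. Tek was read in Dock8+/- only (58.6 and 7.69), at least 1.74-fold lower, so its difference may be larger. Of 5 melanocyte markers 1 was 2-fold higher, with Pmel and Mlana read on neither array and sums of 0.811 and 1.51. Of 6 eosinophil markers 3 were read, with Epx, Il5ra and Siglecf read on neither array and sums of 0.946 and 0.495. Of these 3, 1 was at least 2-fold lower and 0 higher. It was Ear2, read in Dock8+/- only (180 and 18.5) and at least 4.65-fold lower, while Prg2 was 1.43-fold higher. The 10 markers of DRG neurons were read on both arrays, with a median of -0.08, sums of 729 and 630 and 1 gene at least 2-fold lower.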

How the data were processed

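Per the labels' protocols, Isogen was used for total RNA and a low-input kit for Cy3 labelling. The authors deposited 1 scanner file per array, with intensity values on a linear scale made by Agilent Feature Extraction, version 10.7.1.1 per the file headers and 9.5.1.1 per the submitters' processing notes. The files also hold a p-value of each spot against background, made by the authors' software, as deposited. Probe positions are on mm9 per the file headers. A deposited value table holds linear intensity, found to be quantile normalised (98.9% of sorted values equal with tolerance 0, medians of 27.9 and 27.9). Each of its columns follows the scanner file of the same array (correlations of 0.9997 and 0.9993 of log2 values). These correlations lie within an array and do not compare the differences between arrays. The value table shows no centring of genes and served as an alternative, and 0 of its columns were unused.

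Non-uniform spots were left out (3 and 1), spots of a probe were averaged on the log2 scale and the 75th percentile was subtracted. For the 56601 probes analysed, gene names came from RefSeq accessions (32985 probes), symbols (10228), older symbols (519) or the file (12869). The probe with the highest mean stood for a gene. A gene read on 1 array only got a bound, against the higher of its own value and the lowest signal read on the other array. Of the 37008 genes 40 were read on both arrays by different probes only and were left out of counts. Named genes were the 10 members, up to 4 genes with the largest difference per list, and a few fixed genes; Cma2 and the others in the text fall under this rule, and Pmel, Mlana, Epx, Il5ra and Siglecf are named as unread. The members and lists were chosen with earlier results of these data known. Values of a few single genes are not reported here. No test was possible with 1 array per group, and the number of arrays limits the precision. Python 3.11.15 and limma 3.58.1 were used, with normexp offset 50 and loess span 0.3, and the gene-level code was tested on simulated data.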

Additional observations from a re-analysis of the deposited data

How the results depend on the processing

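No paired analysis was possible because there was a single array per genotype, which also left no replicate to omit. The count of 3 genes at least 2-fold lower was 3 or 4 under the alternatives, except 7 with spike-in scaling, which shifts the median of all genes by -1.85. Tpsb2, Kit, Ms4a2 and Hdc were added with spike-in scaling. The count was 4 without the filter on dim probes and with the less strict flag for detection. Fcer1a was added there, and its Dock8-/- value of 3.60 is a surrogate. The count of 0 at least 2-fold higher became 1, Gata2, when 1.5-fold was used as the size, and was 0 otherwise. With the less strict flag for detection, 9 of the 10 genes in place of 8 were flagged in Dock8+/- and 7 in place of 4 in Dock8-/-. Median scaling shifted the median of all genes by -0.23. The lowest and highest log2 values over the main setting and the 10 alternatives were -6.65 and -2.73 for Mcpt4, -6.14 and -2.33 for Cma1, -4.84 and -1.09 for Cpa3, -2.20 and -0.13 for Tpsb2, -1.82 and 0.07 for Kit, -1.46 and 0.44 for Hdc, and -0.93 and 0.95 for Gata2. Apart from the size of 1.5-fold and the spike-in shift, which act by construction, the cause of these changes was not tested. Signal over background limits what can be said of Fcer1a, Ms4a2 and Tpsab1.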
